A study of Rattus norvegicus with 8 samples.

Results

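Axon guidance genes encode the secreted and membrane-bound cues that steer growing axons and the receptors that read them. The set described here holds 52 genes, chosen by name as the semaphorins, plexins, neuropilins, ephrins, Eph receptors, Slits, Robos, netrin 1 and the netrin receptors of the Dcc and Unc5 families, out of 14497 genes that the array annotation names by a single symbol. There are 16 semaphorins, 5 plexins, 2 neuropilins, 7 ephrins, 11 Eph receptors, 2 Slits, 4 Robos, and netrin 1 with 4 of its receptors. Other genes of these families were not analysed here. The rule goes by gene symbol.

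RNA came from the ipsilateral L5 dorsal root ganglion (DRG), which houses the cell bodies of sensory neurons, of adult male Wistar rats whose L5 spinal nerve had been tied and cut, and was taken on day 14. In the HDACI group (4 arrays) the rats received MS-275, an inhibitor of class I histone deacetylases, at 30 nmol per day from an intrathecal osmotic pump connected before the injury. In the vehicle group (4 arrays) the pump held the solvent, dimethyl sulfoxide in saline. Histone acetylation in L5 ganglia showed no clear change with the drug in the paper. It proposes that the drug may not have reached these ganglia in detectable amounts. Every ganglion was injured, so the comparison is of drug against vehicle after injury and not of injured against intact tissue. The methods call the arrays of a group biological replicates, and whether a replicate was 1 ganglion or a pool is not given in the sources used here. Expression was read on Rat Gene 1.0 ST arrays as log2 RMA values, so that a difference of 1 is a 2-fold change. A ganglion holds neurons, glia, vessels and connective tissue, and in such bulk tissue fewer cells of a type and less RNA per cell cannot be told apart.

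Semaphorins are ligands that mostly repel axons: the secreted class 3 members bind neuropilins, which pass the signal on through plexins of the A group, while membrane-bound classes signal through plexins directly. Ephrins are held in the membrane and bind Eph receptor tyrosine kinases on neighbouring cells, Slits bind Robo receptors, and netrin 1 attracts through Dcc and repels through Unc5 receptors. In adult sensory ganglia these systems are known for their part in regeneration and sprouting of injured axons, and they also act in vessels, glia and connective tissue.

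The arrays were alike in their centre, with medians from 8.13 to 8.16 over all 28826 probe sets. Markers of sensory neurons (10 of 12 measured) averaged 10.82 to 11.20 per array, those of satellite glia (4 of 6) 9.20 to 9.52 and those of myelinating Schwann cells (5 of 6) 11.90 to 12.40, so that the labelled tissue had its defining markers on every array. Skeletal muscle, which should be absent from a ganglion, stood apart: the mean of 10 muscle markers was 7.54 to 7.96 on the HDACI arrays and 7.62 on vehicle replicate 3, but 11.53, 10.52 and 9.52 on vehicle replicates 1, 2 and 4. All 10 had a lower HDACI mean, with a mean difference of -1.96. The part of muscle in the guidance genes was not tested, except by a fit with the marker mean as a covariate (the muscle covariate). That mean went with the group, so values from this fit cannot tell muscle and drug apart.

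No guidance gene passed an adjusted p of 0.05 in limma (0 of 52, where 0% of all probe sets did), and the smallest adjusted p among them was 1. At an unadjusted p under 0.05 there was 1 gene lower with HDACI, Plxna3, or 1.92% of the set against 1.93% of all probe sets, and 0 genes higher against 1.61%. At an unadjusted p under 0.01 there was again 1 gene, against 0.555% of all probe sets. The 4 HDACI arrays lay wholly below the 4 vehicle arrays for 1 gene (1.09% of all probe sets) and wholly above for 0 genes (1.01%). These counts lie near their background.

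Small differences in either direction made up the rest. The HDACI mean was higher for 34 genes and lower for 18, with a median difference (HDACI minus vehicle) of 0.03 on the log2 scale, beside 0.00 over all genes, where 46.9% were lower against 34.6% of the guidance genes. For 29 of 52 genes the difference was within 0.1 of 0, and for 7 it was beyond 0.2. Over all 14497 genes these counts were 11813 and 610. The median absolute difference was 0.090 for the guidance genes and 0.045 over all genes. The 95% confidence interval of the difference excluded a change of 2-fold or more for 52 of 52 genes, of 1.5-fold or more for 48 and of 1.2-fold for 24. Over all genes the 2-fold bound was met by 99.1% and the 1.5-fold bound by 96.9%, against 100% and 92.3% here. The 1.2-fold bound was met by 73.4% of all genes, against 46.2% here. The median within-group SD was 0.132 for the guidance genes and 0.0932 over all genes.

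**Figure D1:**
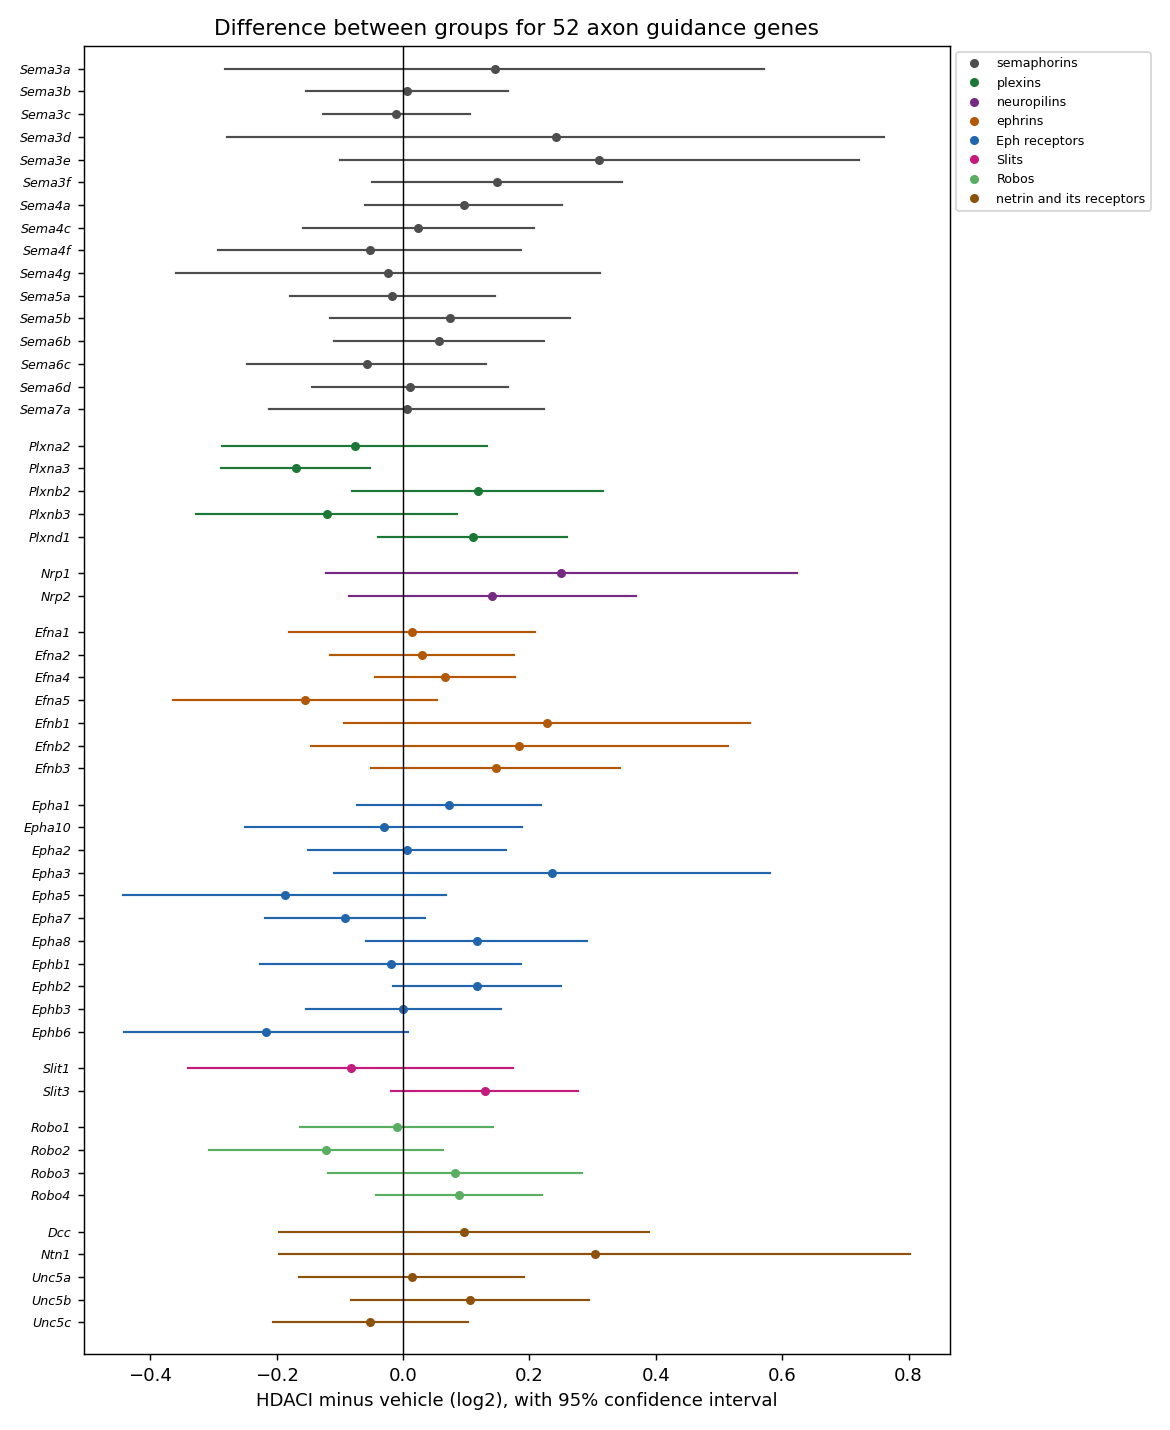
Difference between the group means (HDACI minus vehicle, log2, horizontal axis) for each of the 52 genes, coloured by family, with the 95% confidence interval from limma as a line. Only the interval of Plxna3, from -0.29 to -0.05, leaves out 0, and the widest intervals belong to Sema3d, Ntn1, Sema3e and Sema3a.

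Plexins are the signalling receptors of the semaphorins, and Plxna3, which works with neuropilins in the response to class 3 semaphorins, was the gene with the smallest p. Its log2 values were 9.20, 9.09, 9.09 and 9.09 on HDACI replicates 1 to 4, and 9.22, 9.38, 9.26 and 9.30 on vehicle replicates 1 to 4. The groups did not overlap, although HDACI replicate 1 lay close to vehicle replicate 1. The means were 9.12 ± 0.06 and 9.29 ± 0.07 (SD, n = 4 each), a difference of -0.17 ± 0.05 (SE) or 0.889-fold, with an unadjusted p = 0.00957 and an adjusted p = 1 in limma. On vehicle replicate 3, where muscle markers averaged 7.62, Plxna3 was at 9.26, but 1 array cannot tell muscle and drug apart. With the muscle marker mean as a covariate the difference was -0.16 and its unadjusted p = 0.0627.

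The promoter of Plxna3 is shown because it belongs to the single gene whose groups did not overlap. Those of Nrp1 and Sema3d are shown because both genes had the same 3 lowest arrays, described further on. Each run is the 250 bases upstream of the annotated start in RefSeq (GRCr8), 5′ to 3′ on the strand of the gene, and capitals mark a GC box, the letters GGGCGG on either strand.
Plxna3: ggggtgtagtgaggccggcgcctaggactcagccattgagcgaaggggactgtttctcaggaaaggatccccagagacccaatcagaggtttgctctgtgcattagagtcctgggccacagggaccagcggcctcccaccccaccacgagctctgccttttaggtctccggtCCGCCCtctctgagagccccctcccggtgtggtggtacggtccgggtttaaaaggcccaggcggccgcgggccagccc
Nrp1: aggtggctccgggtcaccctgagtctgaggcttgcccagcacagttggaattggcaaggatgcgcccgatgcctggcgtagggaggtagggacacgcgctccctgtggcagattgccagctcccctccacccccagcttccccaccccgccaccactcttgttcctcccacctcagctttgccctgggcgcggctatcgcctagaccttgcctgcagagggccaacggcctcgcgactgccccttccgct
Sema3d: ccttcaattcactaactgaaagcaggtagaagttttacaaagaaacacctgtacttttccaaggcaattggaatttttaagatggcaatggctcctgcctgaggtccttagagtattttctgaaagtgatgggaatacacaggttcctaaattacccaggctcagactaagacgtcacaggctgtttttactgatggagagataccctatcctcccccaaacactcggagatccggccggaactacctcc
They lie at chrX:157266857-157267106 (plus strand), chr19:73256307-73256556 (plus strand) and chr4:23460972-23461221 (minus strand). Plxna3 has 1 GC box and 13 CpG pairs in a window that is 64.4% G and C, Nrp1 has 14 CpG pairs at 66.4%, and Sema3d has 4 at 44.8%. Of 43 guidance genes found in the promoter table, 21 (48.8%) held a GC box, against 30.5% of all 33469 promoters of that length, and their median G and C content was 60.4% against 51.2%. The guidance genes count 1 promoter each, while the 33469 are every promoter in that table, not limited to genes on the array, so the sets are unlike. These letters describe the windows and say nothing of which factors bind there.

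The other plexins were less separated. Plxnb3, a receptor for Sema5a, had values of 10.65, 10.49, 10.51 and 10.22 with HDACI and 10.54, 10.58, 10.52 and 10.72 with vehicle, a difference of -0.12 ± 0.09, in which HDACI replicate 4 was the lowest array and without which the difference was -0.04. Plxnd1, the receptor that Sema3e binds without a neuropilin and that is best known from vessels, averaged 10.61 ± 0.09 against 10.50 ± 0.10, a difference of 0.11 ± 0.07 (unadjusted p = 0.131 in limma) that was 0.02 with the muscle marker mean as a covariate. The 8 endothelial and pericyte markers averaged 10.04, 9.94, 9.86 and 10.07 with HDACI and 9.85, 9.76, 9.94 and 9.86 with vehicle, a difference of 0.13 with 1 marker lower and 1 past an unadjusted p of 0.05, and their part in the value of Plxnd1 was not tested. Differences were 0.12 ± 0.09 for Plxnb2, which binds class 4 semaphorins, and -0.08 ± 0.09 for Plxna2. Plxnb2 was at 0.03 without HDACI replicate 4, and Plxna2 at 0.00 without vehicle replicate 2.

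Both neuropilins, the ligand-binding partners of the A plexins, had a higher mean with HDACI and broad overlap. Nrp1, which binds Sema3a and also vascular endothelial growth factor, measured 9.88, 10.09, 10.17 and 10.63 with HDACI and 10.22, 9.80, 10.03 and 9.72 with vehicle, a difference of 0.25 ± 0.16 (95% interval -0.12 to 0.62). HDACI replicate 4 was the highest array, and without it the difference was 0.10. Nrp2, which binds Sema3f, measured 11.51, 11.69, 11.84 and 11.86 against 11.69, 11.37, 11.73 and 11.55, a difference of 0.14 ± 0.10 that was 0.07 without vehicle replicate 2. HDACI replicate 1 lay below the mean of the vehicle arrays for both genes.

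Among the 6 class 3 semaphorins, the secreted ligands, the median difference was 0.15 with 1 lower and 5 higher. Sema3e had the largest positive difference of the set, 0.31 ± 0.18 (unadjusted p = 0.121 in limma), from values of 8.60, 8.53, 8.53 and 9.35 with HDACI and 8.38, 8.25, 8.50 and 8.62 with vehicle. A single array, HDACI replicate 4, carried most of it, and without that array the difference was 0.11. Sema3d measured 8.94, 9.38, 9.27 and 9.72 against 9.38, 8.71, 9.55 and 8.70, a difference of 0.24 ± 0.23, with vehicle replicates 2 and 4 the lowest arrays. It was 0.06 with the muscle covariate and from 0.11 to 0.40 with each array left out. For Sema3a, the classical repellent of nociceptive sensory axons, the values were 6.54, 7.06, 6.60 and 7.37 against 6.88, 6.58, 6.99 and 6.55, so that each group held arrays from both ends of the range and the difference was 0.15 ± 0.19. Without HDACI replicate 4 it was -0.01. Sema3f differed by 0.15 ± 0.09, by 0.08 without vehicle replicate 2, by 0.22 without vehicle replicate 3 (unadjusted p = 0.0194 in limma) and by -0.00228 with the muscle marker mean as a covariate. The means of the groups lay close for Sema3b and Sema3c: Sema3b averaged 11.77 ± 0.14 against 11.77 ± 0.05 and Sema3c 11.26 ± 0.06 against 11.27 ± 0.06. Without HDACI replicate 4, at 11.57, the Sema3b difference was 0.07.

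The 10 semaphorins of classes 4 to 7, which are anchored in the membrane, all differed by less than 0.1, with 4 lower, 6 higher and a median of 0.01. Sema5a, whose thrombospondin repeats set its class apart, averaged 11.57 ± 0.13 against 11.58 ± 0.08. Sema7a, which is held by a lipid anchor and signals through integrins and plexin C1, measured 11.73, 11.52, 11.29 and 11.43 against 11.46, 11.47, 11.38 and 11.63, with an interval from -0.21 to 0.22. Sema4g hid a low array behind a difference of -0.02 ± 0.15: HDACI replicate 4 was at 8.60, and the other HDACI arrays were at 9.30, 9.33 and 9.13. Sema4c is read by 2 probe sets, which differed by 0.02 and 0.12.

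**Figure D2:**
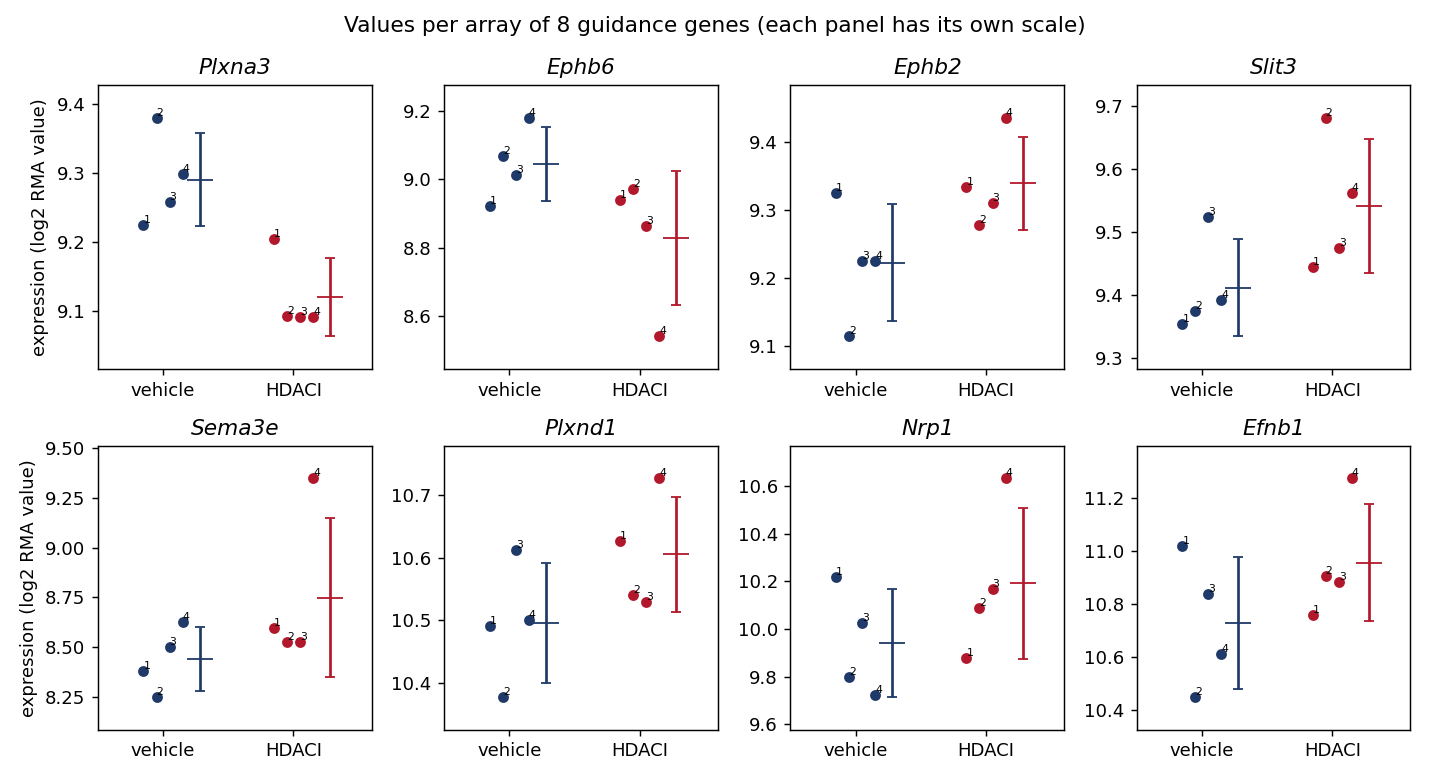
Log2 RMA value per array (vertical axis, a separate scale in each panel) of 8 guidance genes, with the replicate number beside each point and the group mean ± SD as a bar (n = 4 arrays a group). Plxna3 is the panel without overlap, and in Sema3e, Nrp1 and Efnb1 HDACI replicate 4 is the highest array.

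All 3 class B ephrins, transmembrane ligands that can also signal into the cell that bears them, had a higher mean with HDACI, with a median difference of 0.18. Efnb1 measured 10.76, 10.91, 10.88 and 11.27 against 11.02, 10.45, 10.84 and 10.61, a difference of 0.23 ± 0.14 (unadjusted p = 0.144 in limma). Leaving out HDACI replicate 4 gave 0.12. Of the vehicle arrays, leaving out replicate 2 gave 0.13 and leaving out replicate 1 gave 0.32 (unadjusted p = 0.0436). Without vehicle replicate 1, 6.1% of all probe sets passed an unadjusted p of 0.05, against 3.55% with all arrays. Efnb2, also a marker of arteries, measured 9.13, 8.88, 9.25 and 9.64 against 9.12, 8.84, 9.09 and 9.11. Its difference of 0.18 ± 0.15 was 0.05 without HDACI replicate 4. Efnb3 differed by 0.15 ± 0.09. The 4 class A ephrins, held by a lipid anchor, had a median of 0.02. The exception in size was Efna5, with 9.44, 9.25, 9.40 and 9.22 against 9.30, 9.59, 9.67 and 9.37 and a difference of -0.16 ± 0.09 that was -0.22 without vehicle replicate 1 (unadjusted p = 0.0416 in limma) and -0.29 with the muscle covariate (unadjusted p = 0.0368). Efna1 differed by 0.01 ± 0.09.

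Of the Eph receptors 5 were lower and 6 higher, with a median of 0.00. Ephb6, which lacks kinase activity, had the largest negative difference of the set: 8.94, 8.97, 8.86 and 8.54 with HDACI against 8.92, 9.07, 9.01 and 9.18 with vehicle, a difference of -0.22 ± 0.10 (unadjusted p = 0.0574 in limma). HDACI replicates 3 and 4 lay below every vehicle array, replicates 1 and 2 did not, and without HDACI replicate 4 the difference was -0.12. It was -0.25 without HDACI replicate 1 (unadjusted p = 0.0493 in limma) and -0.26 without HDACI replicate 2 (unadjusted p = 0.0374). Without vehicle replicate 1 it was -0.26 (unadjusted p = 0.042). Ephb2, a receptor of B ephrins, measured 9.33, 9.28, 9.31 and 9.44 against 9.33, 9.11, 9.23 and 9.22. Its difference was 0.12 ± 0.06 (unadjusted p = 0.0766 in limma), 0.15 without vehicle replicate 1 (unadjusted p = 0.0295) and 0.08 without vehicle replicate 2. Ephb3 had the same mean in both groups, 9.37 ± 0.14 and 9.37 ± 0.02, and a difference of 0.00 ± 0.07. HDACI replicate 4 was at 9.17 and the other HDACI arrays were at 9.42, 9.46 and 9.44, and without replicate 4 the difference was 0.07.

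Among the receptors of the A ephrins, 3 were lower and 4 higher. Epha5 measured 8.33, 8.35, 8.28 and 8.15 against 8.23, 8.74, 8.59 and 8.29, and its difference of -0.19 ± 0.11 was -0.10 without vehicle replicate 2. Epha3 measured 7.95, 8.05, 8.22 and 8.57 against 8.05, 8.13, 8.06 and 7.61, a difference of 0.24 ± 0.15 that was 0.11 without HDACI replicate 4 and 0.12 without vehicle replicate 4. The other A receptors differed by between -0.09 (Epha7) and 0.12 (Epha8).

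Slits and Robos showed no common direction. Slit3 measured 9.44, 9.68, 9.47 and 9.56 against 9.35, 9.38, 9.52 and 9.39, a difference of 0.13 ± 0.07 (unadjusted p = 0.0799 in limma) that was 0.04 with the muscle covariate. Slit1 measured 9.64, 9.59, 9.58 and 9.47 against 9.29, 9.78, 9.70 and 9.85, and vehicle replicate 1 was its lowest array. Its difference of -0.08 ± 0.11 was -0.20 without that array, with an unadjusted p = 0.00954, and -0.02 without vehicle replicate 4. Robo2, a Slit receptor of neurons, averaged 9.22 ± 0.05 against 9.35 ± 0.17, a difference of -0.12 ± 0.08. It was -0.06 without vehicle replicate 4, -0.18 without vehicle replicate 2 (unadjusted p = 0.0412) and -0.26 with the muscle covariate (unadjusted p = 0.0299). Robo1 differed by -0.01 ± 0.07. Robo4, which is known from endothelium, differed by 0.09 ± 0.06 and Robo3 by 0.08 ± 0.09.

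Netrin 1 was among the most variable genes. Ntn1 measured 9.86, 10.15, 10.04 and 10.35 with HDACI and 10.23, 9.36, 10.20 and 9.38 with vehicle, so that vehicle replicates 1 and 3 lay within the HDACI range and vehicle replicates 2 and 4 below it. The difference was 0.30 ± 0.22 (95% interval -0.20 to 0.80, unadjusted p = 0.202 in limma), and leaving out a vehicle array gave 0.16 for replicate 2, 0.17 for replicate 4 and 0.45 for replicate 1. Among its receptors Dcc differed by 0.10 ± 0.13, Unc5b by 0.11 ± 0.08, Unc5a by 0.01 ± 0.08 and Unc5c by -0.05 ± 0.07.

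Many of these genes varied between arrays of the same group. Over all 8 arrays, 26 of 52 genes (50%) lay above the 75th percentile of the SD over all genes. HDACI replicate 4 was the highest array for 16 genes and the lowest for another 16 (30.8% each), where over all probe sets it was highest for 15.0% and lowest for 19.5%. Vehicle replicate 2 was lowest for 12 genes (23.1%, against 11.7% of all probe sets), and vehicle replicate 1 was highest for 0 genes (14.0% of all probe sets) and lowest for 10 (19.2%, against 19.0%).

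**Figure D3:**
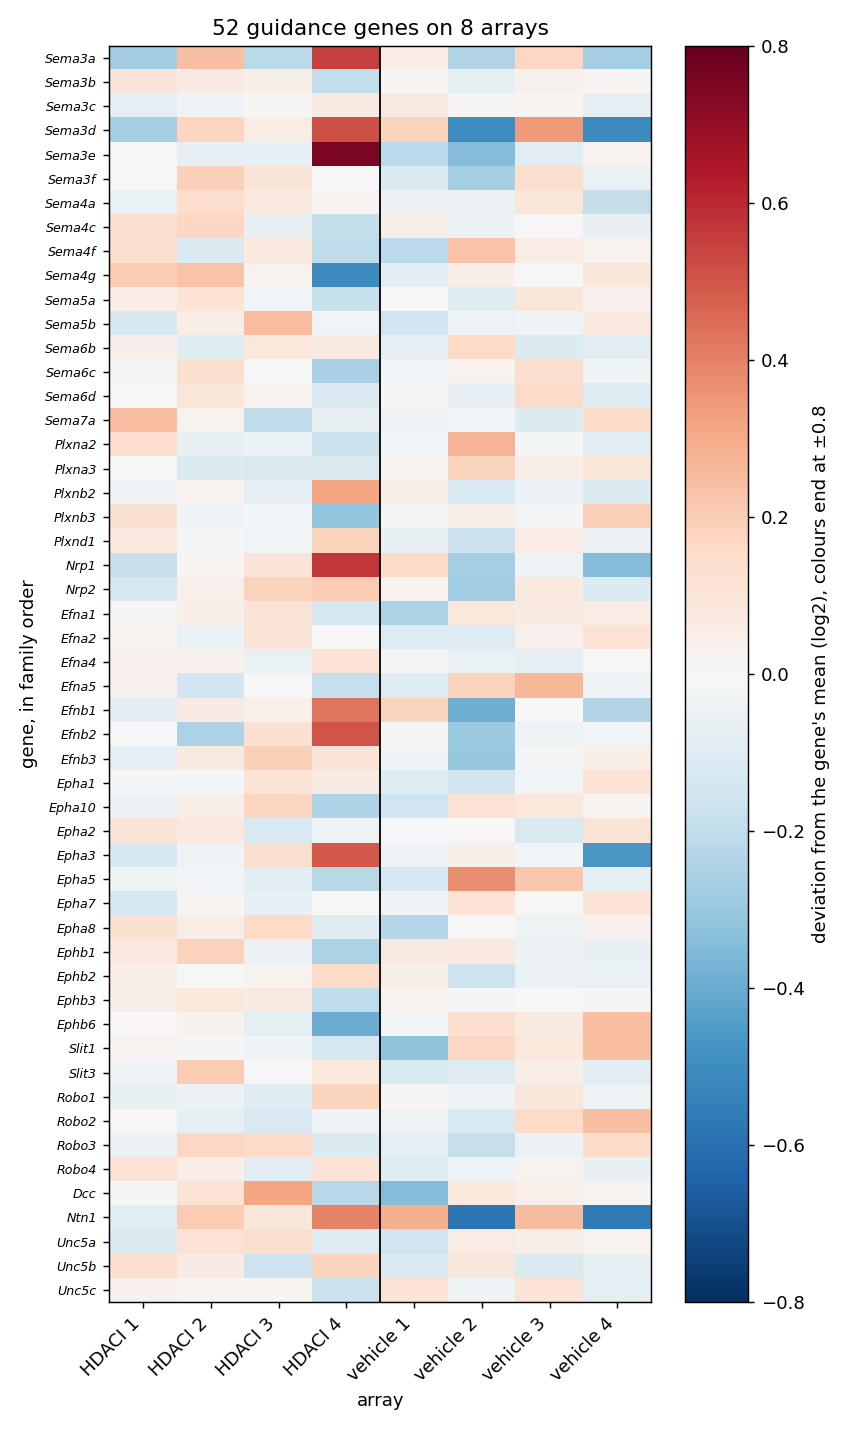
Deviation of each array (columns) from the mean of the gene (rows, in family order) in log2 units, red above and blue below the mean, with colours ending at ±0.8. The column of HDACI replicate 4 holds strong colours in both directions, among them Sema3e, Nrp1 and Efnb2 above and Sema4g and Ephb6 below.

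Several guidance genes shared their 3 lowest or 3 highest arrays with a list of cell type markers. The mean of 6 fibroblast and meningeal markers (collagens, Dcn, Lum and Pdgfra) was 12.19, 12.32, 12.34 and 12.66 on the HDACI arrays and 12.42, 12.00, 12.36 and 12.13 on the vehicle arrays. Its 3 lowest arrays were HDACI replicate 1 and vehicle replicates 2 and 4, and these were also the 3 lowest for Efnb1, Nrp1, Nrp2, Ntn1, Sema3a, Sema3d and Sema4a, or 7 of 52 genes (13.5%, against 3.21% of all genes). Its 3 highest arrays were the 3 highest for Ntn1, Robo1, Sema3c and Sema3d (7.69%, against 1.82% of all genes). All 6 markers had a higher HDACI mean, with a mean difference of 0.15. This sharing of arrays was noticed in the data, and the part of connective tissue in the values of these genes was not tested.

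Neuronal markers gave another order, in which 3 guidance genes shared the 3 lowest arrays and 3 shared the 3 highest (5.77% each, against 3.1% and 4.49% of all genes). The list averaged 10.95, 10.97, 10.93 and 10.87 with HDACI and 10.82, 11.06, 10.98 and 11.20 with vehicle, and 8 of its 10 markers had a lower HDACI mean. Slit1 and Ephb6 matched it at both ends, Epha5 at the low end, and Plxna3 at the high end, where vehicle replicates 2, 3 and 4 led. Vehicle replicate 3, at 10.98, barely exceeded HDACI replicate 2, at 10.97, a gap that can turn on 1 marker. The marker Scn10a was at 10.06 on vehicle replicate 4, against 8.24 to 8.74 on the other arrays. Myelinating Schwann cell markers averaged 12.39, 12.40, 12.20 and 11.90 against 12.21, 12.20, 12.17 and 12.32, and shared their 3 highest arrays with Epha2, Sema4g and Sema7a (5.77%, against 2.15% of all genes) and their 3 lowest with Epha2 and Sema7a (3.85%, against 1.68%). Macrophage markers were highest on HDACI replicate 4, at 10.37 against 9.72 to 9.98 on the other HDACI arrays and 9.77 to 10.03 on the vehicle arrays, and all 8 had a higher HDACI mean. The macrophage list shared its 3 lowest arrays with Sema3c and its 3 highest with Nrp1 (1.92% each, against 1.21% and 2.82% of all genes). The endothelial list shared its 3 highest with Plxnd1 (1.92%, against 1.44%) and its 3 lowest with 0 guidance genes (1.28% of all genes). The satellite glia list shared its 3 lowest with Robo2 (1.92%, against 0.911%) and its 3 highest with 0 (1.12% of all genes). The muscle list shared 0 at either end (1.75% and 1.6% of all genes). The part of these cell types was not tested.

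**Figure D4:**
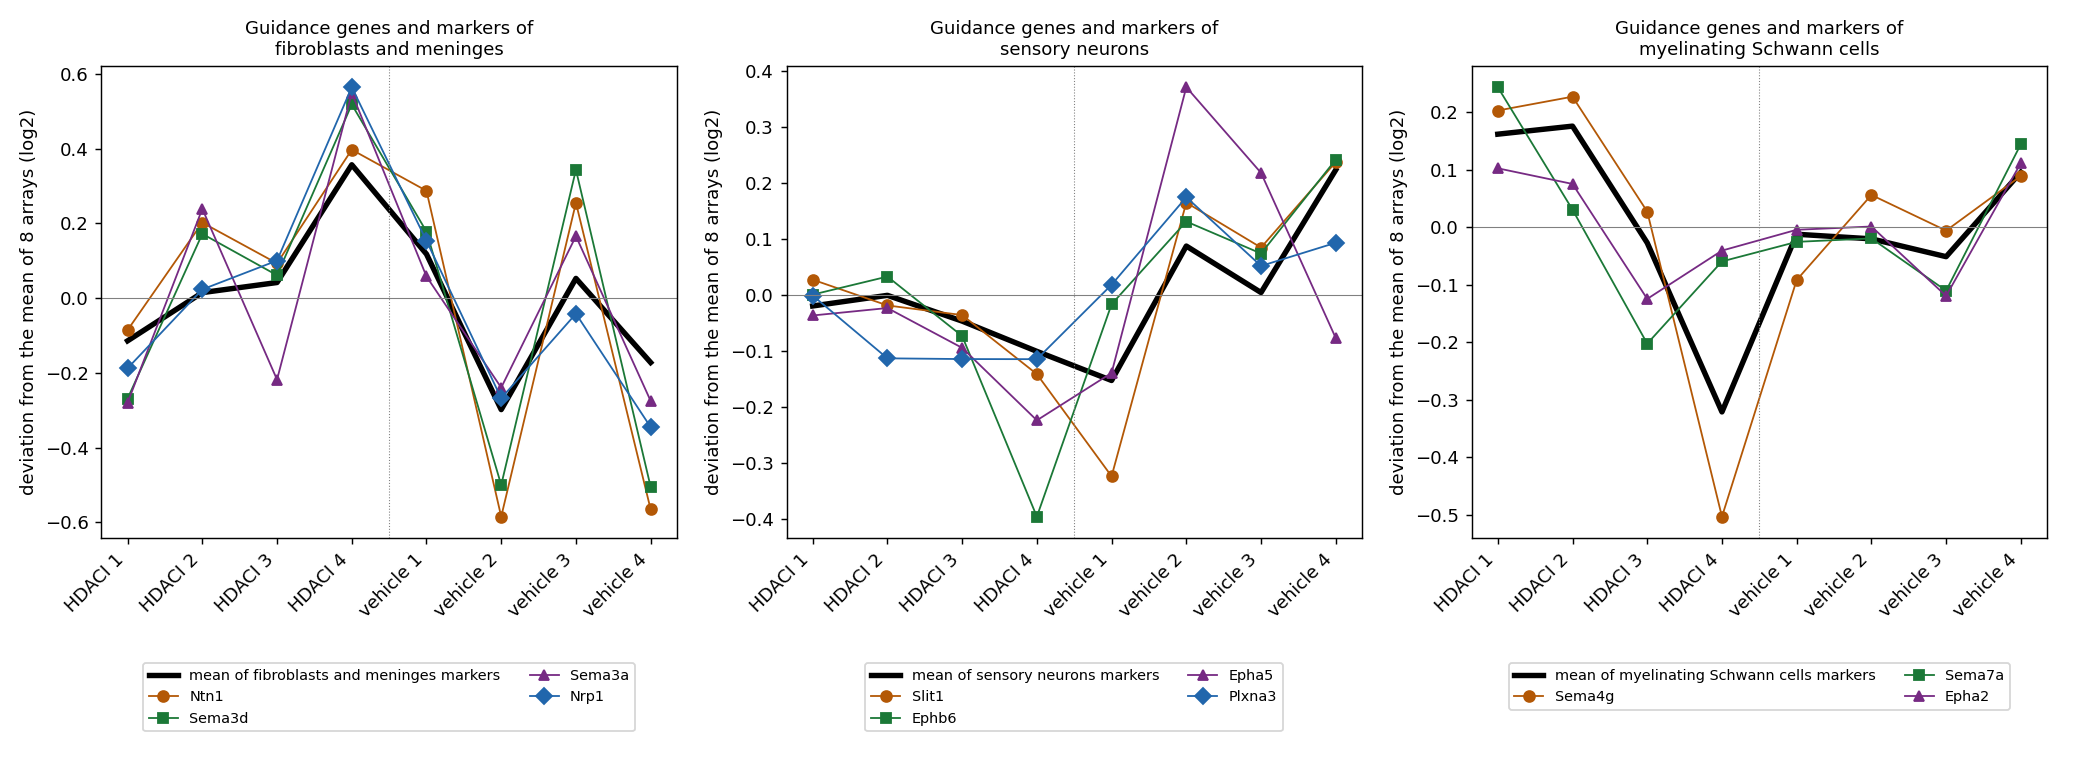
Deviation from the mean of 8 arrays (log2, vertical axis) on each array (horizontal axis) for the mean of a marker list (thick black line) and for guidance genes chosen after their order was seen (coloured lines), for fibroblasts and meninges, sensory neurons and myelinating Schwann cells. Ntn1 and Sema3d are low on HDACI replicate 1 and vehicle replicates 2 and 4, as the connective tissue markers are.

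Few partners further along the pathway passed a threshold. Of 70 listed partners, among them collapsin response mediators, kinases and adhesion molecules through which guidance receptors act, 57 were measured: 29 had a lower and 28 a higher HDACI mean, with a median difference of 0.00. At an unadjusted p under 0.05, 1 partner was lower and 1 higher, 3.51% of the partners against 3.55% of all probe sets, so that the count lies near its background. Nck2, an adaptor that links Eph and other receptors to the cytoskeleton, measured 9.54, 9.56, 9.53 and 9.60 against 9.45, 9.39, 9.49 and 9.43, a difference of 0.12 ± 0.04 without overlap, as for 1.01% of all probe sets (unadjusted p = 0.0224, adjusted p = 1 in limma). Cntn1, an adhesion molecule of axons, differed by -0.13 ± 0.05 (unadjusted p = 0.0369).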

How the data were processed

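The authors deposited log2 expression values from 8 Rat Gene 1.0 ST arrays, normalized by RMA, and used limma; annotation pairs 15209 of 28826 probe sets with 1 gene symbol. The members and lists were chosen with earlier results of these data known. A gene was read from its probe set with the highest mean. HDACI and vehicle (4 arrays each) were compared with limma 3.58.1 in R 4.3.3 (lmFit, eBayes, two-sided) on the whole table, with p-values adjusted by Benjamini-Hochberg across the 28826 probe sets. The fit was also run on simulated data with independent noise. Its simulated effects were larger than any difference of a guidance gene here, so that run does not speak to differences of this size. Named were genes past an unadjusted p of 0.05 or without overlap, the brightest 2 of each family and the 4 with the largest spread. No partner passed 0.01. All other genes were chosen after their values were seen. Promoters came from RefSeq. Alternatives covered the block, filters, centring, variance model, array weights, the muscle covariate and each array left out. Values printed for a gene with an array left out were picked after they were seen, so their p-values are no separate support. RMA compresses differences of dim probe sets, and 3 members (Epha1, Robo3 and Sema3a) lay below 6.95, the 30th percentile of mean level over all probe sets. The number of arrays limits the precision.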

Additional observations from a re-analysis of the deposited data

Results flagged for a closer look

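In 9 of 104 groups of 4 arrays, the highest or lowest array stood further from the others than the 95% critical value of Dixon's ratio, where chance flags about 1 in 20 groups. HDACI replicate 4 was the array in 3 of them: Sema3e at 9.348 (other HDACI arrays 8.525 to 8.596), Ephb3 at 9.165 (9.416 to 9.457) and Unc5c at 8.483 (8.669 to 8.693). Vehicle replicate 1 was low in another 3, with Dcc at 7.191 (other vehicle arrays 7.561 to 7.623), Efna1 at 9.873 (10.18 to 10.20) and Unc5a at 7.146 (7.333 to 7.364). Efnb2 was at 8.840 on vehicle replicate 2 (9.093 to 9.122) and Epha3 at 7.614 on vehicle replicate 4 (8.053 to 8.126). For Plxna3, HDACI replicate 1 was at 9.204, above the other HDACI arrays (9.091 to 9.092) and below every vehicle array. The share of all genes flagged at this cutoff was not computed, so these counts have no background from the same arrays.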

How the results depend on the processing

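The count of guidance genes past an adjusted p of 0.05 in limma was 0 under every alternative run. At an unadjusted p under 0.05 it was 1 as reported, 2 with the replicate block (Plxna3 and Sema3e, with 2.79% of all probe sets past it), 3 with array weights (with 7.09% of all probe sets), 2 with the muscle covariate (Efna5 and Robo2, with 4.03% of all probe sets) and from 1 to 7 with each array left out. The 7 came without vehicle replicate 1, where all probe sets gave 1758 (6.1%) in place of 1022 (3.55%), and over the arrays left out in turn all probe sets gave 2.46% to 6.1%, while leaving out HDACI replicates 1, 2 or 3 or vehicle replicate 3 gave 3. Leaving out vehicle replicates 1 and 2 together, or HDACI replicate 4 and vehicle replicate 1 together, both chosen after seeing the data, gave 3 each (4.8% and 4.72% of all probe sets). Plxna3 stayed between -0.20 and -0.14, with an unadjusted p from 0.00469 to 0.0627. The median difference was 0.0269 as reported, 0.0628 with array weights and from 0.0112 to 0.0561 with each array left out. The cause was not tested. The higher mean with HDACI held for 34 of 52 genes as reported, 31 after median centring and 27 to 39 with each array left out, and 30 genes kept their sign under the 17 alternatives that leave out at most 1 array. The labels do not say whether arrays of the same number were handled together. Deviations of same-numbered arrays correlated at -0.0409, 0.0116, 0.014 and -0.282, and those of other pairs at -0.304 to 0.341, which cannot settle it. The replicate block gave 803 probe sets at an unadjusted p under 0.05 in limma.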
